A study of Mus musculus with 9 samples.

Results

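The genes described are 10 glutathione transferases of mouse HT22 cells, Gsta4, Gstm1, Gstm2, Gstm5, Gstp1, Gsto1, Gstt1, Gstk1, Mgst1 and Mgst3. They were taken by symbol from a count table of 54134 entries, and 10 of 10 were found there. RNA was sequenced in 9 libraries, 3 in each of 3 groups. The control cells had no intervention, the Hb cells were treated with oxyhemoglobin, and the Hb+NTR1 cells were treated with oxyhemoglobin and NTR1. The series title writes the compound as NGR1 and places the study in subarachnoid hemorrhage, where blood and its hemoglobin reach brain cells. All 3 groups are the same wild-type line, named HT22 in the titles and HT-4 in the cell type field, grown in DMEM with fetal bovine serum. The labels give no dose and no time, and no group received NTR1 alone, so the 2 Hb+NTR1 comparisons cannot separate the compound alone from the compound given with oxyhemoglobin. Nothing in the labels tells whether replicate libraries are separate cultures, and p-values then cover only a library-to-library spread that may be technical.

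Glutathione transferases join the tripeptide glutathione to electrophiles, such as the aldehydes and quinones that arise when lipids and catechols are oxidised. The soluble enzymes fall into classes, among them alpha (Gsta), mu (Gstm), pi (Gstp), theta (Gstt) and omega (Gsto), while Gstk1 is the kappa enzyme of mitochondria and peroxisomes. The Mgst enzymes are a separate family that sits in membranes and includes glutathione peroxidase activity. Many of these genes are known targets of NRF2, a factor that binds antioxidant response elements, and in brain they are described mainly in glia, with some classes in neurons.

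Between 13415648 and 16893746 counts were assigned to genes per library. A floor of 3 counts then corresponds to 0.18 to 0.222 CPM (the count scaled to a common library size) in a library, for counting error only. Levels are CPM scaled by TMM factors. One Hb library stood apart, since the chi-square per degree of freedom between Hb replicate 2 and the other Hb libraries was 12.8 and 10.6, against 2.49 to 5.06 for the other pairs within a group. Of 20 neuronal markers of this line, labelled neuronal, 15 were under 1 CPM in control and 3 of them (Map2, Snap25 and Gad1) were at 0 in all libraries. The summed neuronal markers lay at 197 to 205 CPM in control, 191 to 208 CPM in Hb and 128 to 133 CPM in Hb+NTR1. Of 7 astrocyte markers, 6 were under 1 CPM in control, Aqp4 and Gjb6 were at 0, and the sum went from 199 to 229 CPM in control to 115 to 138 CPM in Hb and 8.62 to 10.0 CPM in Hb+NTR1. Fibroblast markers, 7 of 9 of them at 1 CPM or more in control, summed to 13990 to 14900 CPM in control, 11270 to 12710 CPM in Hb and 1298 to 1400 CPM in Hb+NTR1. Microglial markers summed to at most 1.10 CPM and erythroid markers to at most 1.99 CPM in any library. The astrocyte, fibroblast and neuronal sums rest on few genes. Slc1a3 made nearly all of the astrocyte sum, with means of 211, 122.5 and 7.06 CPM in control, Hb and Hb+NTR1. Col1a2 and Col1a1 made most of the fibroblast sum, with control means of 9085 and 3619 CPM and Hb means of 7371 and 2594 CPM. In Hb+NTR1 they were at 943 and 245 CPM. Col3a1 instead went from 1545 to 1769 CPM in Hb, and it was at 71.0 CPM in Hb+NTR1. Pdgfra was at 109, 78.7 and 64.85 CPM in control, Hb and Hb+NTR1. Among neuronal markers, Ncam1 was at 68.3, 63.4 and 70.2 CPM and Dlg4 at 70.1, 70.6 and 32.1 CPM in control, Hb and Hb+NTR1. In the same order, Tubb3 was at 32.6, 36.7 and 5.25 CPM, Syn1 at 24.65, 25.3 and 19.96 CPM, and Camk2a at 3.65, 3.44 and 0.788 CPM. The part of these marker shifts in the transferase results was not tested.

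Of the 10 transferases, 8 were expressed above the filter on low counts and tested, in one edgeR quasi-likelihood fit of 13810 genes with Benjamini-Hochberg adjustment. A gene is called higher or lower where its adjusted p is under 0.05. In Hb against control, 4 of the 8 (Gsta4, Gstm1, Gstp1 and Mgst1) were higher and 0 were lower, while 1.88% of all tested genes were called higher and 1.77% lower. At an unadjusted p under 0.05, and in DESeq2, the counts were also 4 higher and 0 lower. The members, and the lists further below, were chosen with earlier results of these data known. Their counts beside the share of all genes are therefore a description, and that share was not matched for expression level. In Hb+NTR1 against control, 3 (Mgst1, Gstp1 and Gstm2) were higher and 3 (Gsta4, Gstm5 and Mgst3) were lower, against 31.4% and 32.2% of all tested genes. In Hb+NTR1 against Hb, 2 (Mgst1 and Gstm2) were higher and 4 (Gsta4, Gstm1, Gstm5 and Gsto1) were lower, against 30.7% and 31.7%. The share of transferases called in the 2 Hb+NTR1 comparisons is therefore near that of all genes, and the sizes and directions of single genes carry the description. The median log2 fold change of the 8 genes was 0.23, -0.11 and -0.23 in the 3 comparisons in that order, beside 0, -0.0043 and -0.011 over all tested genes. Their median absolute log2 fold change was 0.26, 0.36 and 0.29, beside 0.12, 0.44 and 0.42. The comparisons share libraries with each other, control in one pair, Hb in another and Hb+NTR1 in the last, so a gene's values in them are not independent. In these bulk libraries, fewer cells with a transcript and less of it per cell cannot be told apart.

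**Figure D1:**
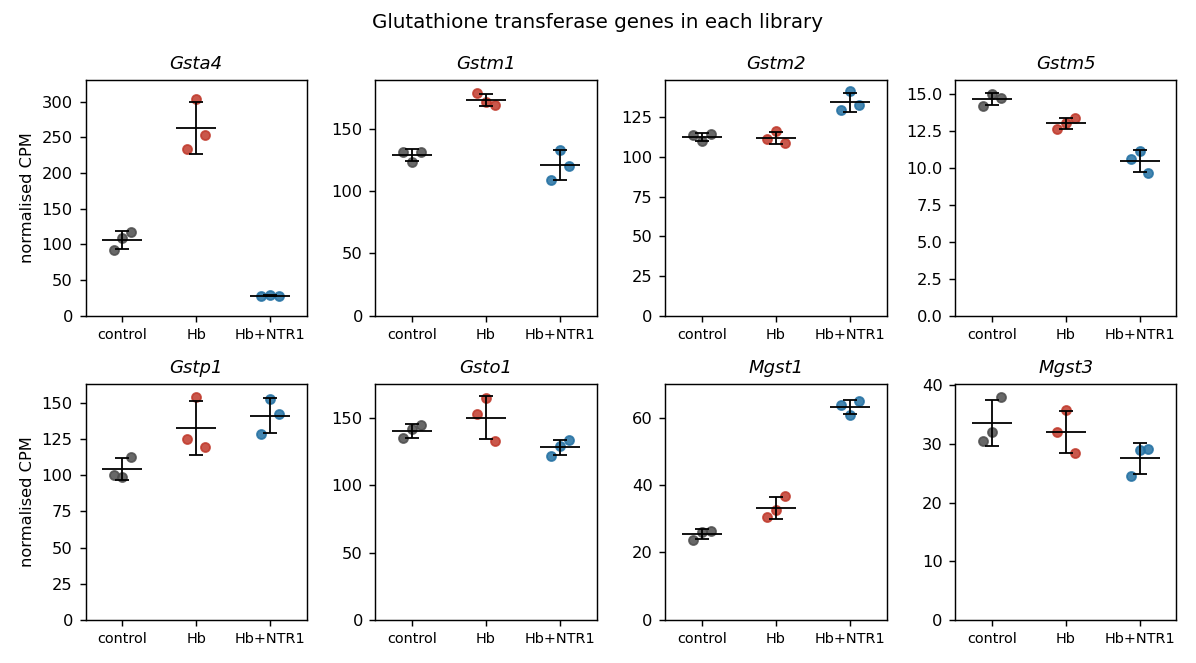
Normalised CPM (y axis, linear, from 0) of the 8 tested transferases in control, Hb and Hb+NTR1 libraries. Points are the 3 libraries of a group, horizontal lines the mean and bars the SD. Gsta4 was at 91.8 to 118 CPM in control, 234 to 304 CPM in Hb and 27.0 to 28.7 CPM in Hb+NTR1, while Mgst1 was at 60.9 to 64.9 CPM in Hb+NTR1, above every library of the other groups.

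Gsta4 is the alpha enzyme known for conjugating 4-hydroxynonenal, an aldehyde released from oxidised membrane lipids. It lies on chromosome 9 (GRCm38 chr9:78182774-78209349, plus strand), and its levels spread furthest of the 8 genes. In control replicates 1 to 3 it was at 91.8, 108.1 and 118 CPM, in Hb replicates 1 to 3 at 234, 304 and 253 CPM, and in the 3 Hb+NTR1 libraries at 27.4, 28.7 and 27.0 CPM. The lowest Hb library thus stood above the highest control library, and all Hb+NTR1 libraries stood below both groups, with no overlap. Against control, Gsta4 rose 2.49-fold with oxyhemoglobin (log2 1.32 ± 0.0885 SE, adjusted p = 4.77e-09). With NTR1 added it was 3.82-fold below control (log2 -1.93 ± 0.099 SE, adjusted p = 8.25e-14). The same libraries were 9.51-fold below Hb (log2 -3.25 ± 0.0996 SE, adjusted p = 1.01e-17). Hb replicate 2 gave the highest Gsta4 level, and without it the log2 change of Hb against control was 1.20 (adjusted p = 3.58e-14). None of the 928 windows of 50 bases in the Gsta4 transcript searched occurred in another gene. The coding sequences of the other alpha genes are 65.9% to 67.3% identical to that of Gsta4. The windows cover that transcript only, and how reads that fit several genes were counted is not given.

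The mu class genes sit in a cluster on chromosome 3, and the 3 listed members behaved differently from each other. Gstm1 (chr3:108012255-108017973, minus strand), an abundant mu enzyme with broad activity towards epoxides and quinones, was at 131, 123 and 131 CPM in control, 178, 171 and 169 CPM in Hb, and 109, 133 and 120.1 CPM in Hb+NTR1. All Hb libraries lay above all others, and the control and Hb+NTR1 libraries overlapped. Gstm1 rose 1.34-fold in Hb (log2 0.43 ± 0.0695 SE, adjusted p = 0.000441). It was 1.43-fold lower in Hb+NTR1 than in Hb (log2 -0.52 ± 0.0698 SE, adjusted p = 7.27e-07). Hb+NTR1 against control gave log2 -0.09 (adjusted p = 0.258), which did not pass. Of the 50-base windows in the Gstm1 transcript, 33.0% occur in another gene, most of them in the pseudogene Gstm2-ps1, so part of its count is uncertain.

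Gstm2 (chr3:107981702-107986453, minus strand), a mu enzyme known in humans for conjugating quinones of dopamine, did not follow Gstm1. Its levels were 114, 110.1 and 115 CPM in control, 112, 116 and 109 CPM in Hb, and 129.5, 141 and 133 CPM in Hb+NTR1. The control and Hb libraries overlapped and the Hb+NTR1 libraries lay above both. Oxyhemoglobin alone gave log2 -0.0079 (adjusted p = 0.973), and its direction turned to 0.031 when only library totals were used for scaling. Gstm2 rose 1.19-fold in Hb+NTR1 against control (log2 0.25, adjusted p = 0.00115) and 1.20-fold against Hb (log2 0.26, adjusted p = 0.00091). Another gene holds 9.36% of the 50-base windows in the Gstm2 transcript, most often Gm12499, so part of this count is uncertain too.

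Gstm5 (chr3:107895821-107898686, plus strand), a mu enzyme expressed in brain and testis, was the lowest of the tested members. It was at 14.2, 15.0 and 14.7 CPM in control, 12.6, 13.03 and 13.3 CPM in Hb, and 10.6, 11.2 and 9.66 CPM in Hb+NTR1. The 3 groups did not overlap and lay in descending order. Only the Hb+NTR1 comparisons passed, with log2 -0.48 against control (adjusted p = 0.001) and -0.31 against Hb (adjusted p = 0.0273), while Hb against control gave -0.17 (adjusted p = 0.496). The call against Hb was lost in DESeq2 (adjusted p = 0.0507) and with no filter on low counts (adjusted p = 0.0586). It was also lost without Hb replicate 2 (adjusted p = 0.0514), without Hb replicate 3 (adjusted p = 0.0621) and without either of 2 Hb+NTR1 libraries (adjusted p = 0.057 and 0.116).

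Gstp1 (chr19:4035407-4037985, minus strand) encodes the pi enzyme, which also binds the stress kinase JNK. Control libraries were at 100.5, 99.1 and 113 CPM, Hb libraries at 125, 154 and 119 CPM, and Hb+NTR1 libraries at 128.5, 152.5 and 142 CPM. Control lay below both treated groups, and the treated groups overlapped. Gstp1 rose 1.36-fold in Hb+NTR1 against control (log2 0.44 ± 0.0853 SE, adjusted p = 9.85e-05). In Hb against control the rise was 1.28-fold (log2 0.35 ± 0.0855 SE, adjusted p = 0.0185), and this call was lost without control replicate 1 (adjusted p = 0.1) or control replicate 2 (adjusted p = 0.123). Without Hb replicate 2, the highest of all 9 libraries, it was 0.23 (adjusted p = 0.0306). Hb+NTR1 against Hb gave log2 0.09 (adjusted p = 0.383), but 0.21 (adjusted p = 0.00917) without Hb replicate 2. The coding sequences of Gstp1 and its neighbour Gstp2 are 98.1% identical, and 62.3% of the Gstp1 windows of 50 bases also occur in Gstp2. The level of Gstp2 was 1.00 ± 0.485 CPM in control (SD, n = 3). The processed pseudogene Gstp-ps, with 71.1% of its windows in other genes and most of these in Gstp2, was at 6.87, 9.61 and 8.93 CPM in control, Hb and Hb+NTR1. It was called higher in Hb+NTR1 against control (adjusted p = 0.0295) and in neither other comparison. The sources used here do not give how reads that fit several of these genes were counted.

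Gsto1 (chr19:47854970-47864790, plus strand), an omega enzyme that reduces dehydroascorbate and removes glutathione from proteins, changed little. It was at 135, 142 and 145 CPM in control, 153.5, 165 and 133 CPM in Hb, and 122, 129 and 134 CPM in Hb+NTR1, and the lowest Hb library lay within the range of the Hb+NTR1 libraries. The call of a 1.17-fold lower level in Hb+NTR1 than in Hb (log2 -0.23, adjusted p = 0.00803) therefore stands with groups that overlap. It was lost without 1 of the Hb+NTR1 libraries (adjusted p = 0.0545). Hb against control gave log2 0.10 (adjusted p = 0.536). Hb+NTR1 against control gave -0.13 (adjusted p = 0.118), which passed in a fit of the 6 libraries compared (adjusted p = 0.0165) and without Hb replicate 2 (adjusted p = 0.0409).

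Mgst1 (chr6:138140316-138156755, plus strand), the microsomal enzyme that protects membranes of the endoplasmic reticulum and outer mitochondrial membrane from lipid peroxides, was the member that rose most with NTR1. Its levels were 23.6, 26.0 and 26.4 CPM in control, 30.5, 32.6 and 36.8 CPM in Hb, and 63.7, 60.9 and 64.9 CPM in Hb+NTR1. The 3 groups were fully separated and in that order. In Hb+NTR1 it was 2.495-fold above control (log2 1.32 ± 0.0869 SE, adjusted p = 4.04e-12). It was also 1.90-fold above Hb (log2 0.93 ± 0.0853 SE, adjusted p = 1.67e-09). The step from control to Hb was smaller, 1.31-fold (log2 0.39 ± 0.0901 SE, adjusted p = 0.0119). That call was lost when control replicate 1 was left out (adjusted p = 0.0883) and when Hb replicate 3 was (adjusted p = 0.0688).

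Mgst3 (chr1:167371966-167393841, minus strand) is a membrane enzyme with transferase and peroxidase activity. It was at 30.6, 32.0 and 38.0 CPM in control, 32.0, 35.8 and 28.5 CPM in Hb, and 24.6, 29.0 and 29.1 CPM in Hb+NTR1. The Hb libraries overlapped both other groups. Mgst3 was 1.22-fold lower in Hb+NTR1 than in control (log2 -0.28, adjusted p = 0.0236). That call was lost with library totals alone (adjusted p = 0.0708), without control replicate 3 (adjusted p = 0.175) and without 1 Hb+NTR1 library (adjusted p = 0.147). Hb against control gave -0.06 (adjusted p = 0.833). Hb+NTR1 against Hb gave -0.22 (adjusted p = 0.0744), which passed without Hb replicate 3 (adjusted p = 0.026).

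Gstt1, the theta enzyme that acts on small halogenated compounds, and Gstk1 were barely detected. Gstt1 had 1 count in control replicate 1, 1 count in control replicate 3 and 0 in the other 7 libraries. Gstk1 had 1 count in control replicate 1, 1 count in a Hb+NTR1 library and 0 elsewhere. Neither passed the filter, and a count of 0 over the 3 Hb libraries allows up to 0.0711 CPM. Gstt1 lies on chromosome 10 and Gstk1 on chromosome 6.

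**Figure D2:**
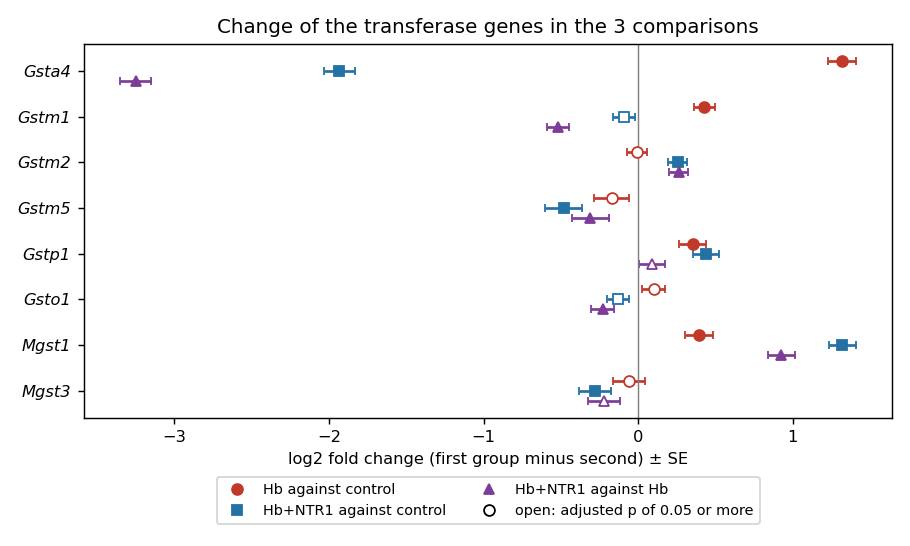
Log2 fold change (x axis) of the 8 tested transferases in Hb against control (circles), Hb+NTR1 against control (squares) and Hb+NTR1 against Hb (triangles), with bars of ± 1 SE and open symbols where the adjusted p was 0.05 or more. Gsta4 lies at 1.32, -1.93 and -3.25, and Mgst1 at 0.39, 1.32 and 0.93.

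Per kilobase of exon, with every exon base of a gene counted once, the order of the members changed between groups. Places within a group depend on that length. It was 1548 bases for Gstp1 and 1266 for Gsta4, while single transcripts of these genes have 821 and 977 bases. The order by transcript length was not computed. In control Gstm1 (87.3 ± 3.28 CPM per kb, SD, n = 3) and Gsta4 (83.6 ± 10.3) led with overlapping libraries, followed by Gsto1, Gstp1 and Gstm2 at 67.2 to 69.5 CPM per kb, each overlapping its neighbour. Mgst3 came next at 30.6 CPM per kb, then Mgst1 at 12.6 and Gstm5 at 11.5, whose libraries overlapped. In Hb, Gsta4 (208 ± 28.7 CPM per kb) stood clear of Gstm1 (117 ± 3.39), and Gstm1 stood clear of Gstp1 (85.7 ± 12.01). Gsto1 overlapped both Gstp1 above it and Gstm2 below it, and Mgst3, Mgst1 and Gstm5 followed without overlap. In Hb+NTR1, Gstp1 (91.1 ± 7.76 CPM per kb), Gstm1 (81.9 ± 8.25) and Gstm2 (80.2 ± 3.66) led with overlaps between neighbours. Gsto1 followed at 63.5 CPM per kb and Mgst1 at 31.4, and Gsta4 had moved to the seventh place at 21.9 CPM per kb, overlapping Mgst3 at 25.1. Gstm5 was last in all 3 groups.

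The summed level of the 10 genes was 666 ± 31.1 CPM in control, 910.1 ± 71.0 CPM in Hb and 654 ± 35.8 CPM in Hb+NTR1 (SD, n = 3 each). Every Hb library, the lowest at 861 CPM, lay above all control and Hb+NTR1 libraries, the highest of which was at 701 CPM, and the control and Hb+NTR1 sums overlapped. Mitochondrially encoded genes took 4.73 to 5.21% of counts in control, 4.14 to 4.57% in Hb and 6.19 to 6.65% in Hb+NTR1, with no overlap, and their part in the transferase levels was not tested. The makeup of the sums differed, also between control and Hb+NTR1. Gsta4 made up 15.9 ± 1.34% of the control sum, 28.9 ± 2.03% of the Hb sum and 4.24 ± 0.183% of the Hb+NTR1 sum. Mgst1 made up 3.81 ± 0.148%, 3.67 ± 0.521% and 9.69 ± 0.752%, and Gstp1 15.6 ± 0.485%, 14.5 ± 0.875% and 21.6 ± 0.668%. Within a library, which removes any effect of scaling, Gsta4 counts were 0.824 ± 0.109 per Gstm1 count for control, 1.53 ± 0.234 for Hb and 0.231 ± 0.0188 for Hb+NTR1.

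**Figure D3:**
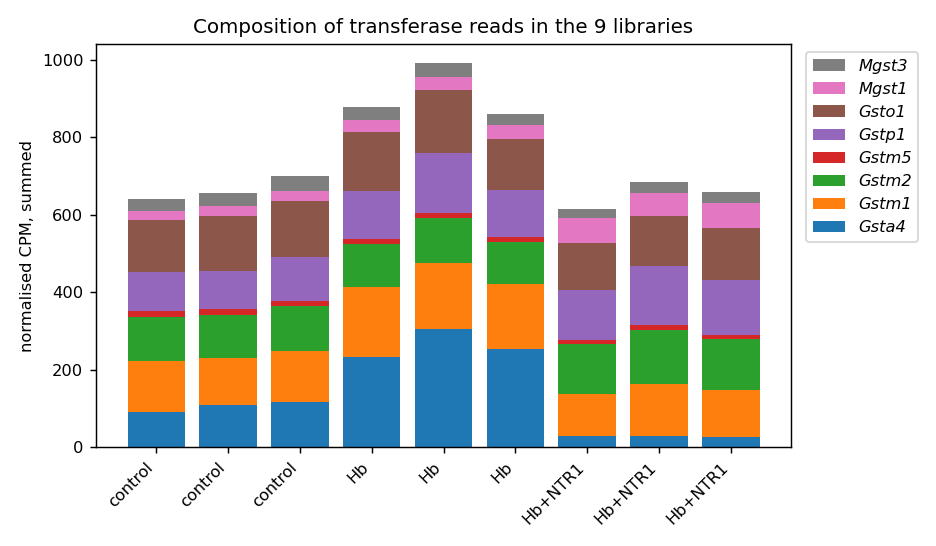
Stacked normalised CPM (y axis, linear, from 0) of the 8 tested transferases in each of the 9 libraries, coloured by gene. The Hb bars are the tallest, at 861 to 992 CPM, and the Gsta4 segment shrinks from 26.7 to 30.7% of the bar in Hb to 4.10 to 4.45% in Hb+NTR1.

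Promoter windows of 300 bases that span RefSeq start sites and lie mostly before them (GRCm38.p6) are shown for the members whose window held a known stress-response motif, since several of these genes are textbook targets of such factors. The table held 11 windows for 9 of the 10 members, all but Gsta4. Both strands were searched for TGACNNNGC, the core of the antioxidant response element, and for TGANTCA, the AP-1 motif; the 2 patterns can overlap. Capitals mark the motif. Positions are bases relative to the start site. The Mgst1 window (chr6:138140277-138140576, plus strand) held TGACNNNGC on the opposite strand with its first base at -56, so its letters appear reversed and complemented. The Gstm5 window (chr3:107895604-107895903, plus strand) held TGACNNNGC at -42 and TGANTCA at -176. The Gstp1 window (chr19:4037863-4038162, minus strand) held TGANTCA at -74. Each sequence reads 5′ to 3′ along the gene.
Mgst1: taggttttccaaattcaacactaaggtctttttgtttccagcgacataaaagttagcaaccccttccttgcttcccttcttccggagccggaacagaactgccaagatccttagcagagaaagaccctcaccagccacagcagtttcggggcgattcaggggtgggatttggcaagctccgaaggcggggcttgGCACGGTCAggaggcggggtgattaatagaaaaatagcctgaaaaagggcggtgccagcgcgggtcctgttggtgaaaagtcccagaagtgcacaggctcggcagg
Gstm5: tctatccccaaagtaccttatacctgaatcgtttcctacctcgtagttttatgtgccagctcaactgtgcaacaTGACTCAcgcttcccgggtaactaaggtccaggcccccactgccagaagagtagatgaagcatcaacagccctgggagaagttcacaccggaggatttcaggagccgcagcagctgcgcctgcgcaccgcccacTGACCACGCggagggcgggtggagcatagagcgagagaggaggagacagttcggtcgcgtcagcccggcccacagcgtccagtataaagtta
Gstp1: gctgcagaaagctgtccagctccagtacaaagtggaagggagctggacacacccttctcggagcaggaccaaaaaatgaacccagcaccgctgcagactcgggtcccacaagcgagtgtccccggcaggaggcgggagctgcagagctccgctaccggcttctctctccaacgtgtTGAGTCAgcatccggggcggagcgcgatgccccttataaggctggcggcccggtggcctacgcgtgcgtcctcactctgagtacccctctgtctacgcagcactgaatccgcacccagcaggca

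TGACNNNGC was present in 2 of the 11 member windows and in 12.4% of all 32851 promoter windows, and TGANTCA in 2 of the 11 and in 7.81% of all. Both together, as in the Gstm5 window, were present in 1.17%. By these 2 patterns the matches were unlike, with only TGACNNNGC for Mgst1, only TGANTCA for Gstp1 and both for Gstm5. The Gstp1 site with its next bases reads TGAGTCAGC, which differs from TGACNNNGC in a single base, G in place of C. The lack of TGACNNNGC there therefore holds for the exact letters searched only. In Hb+NTR1 against control Mgst1 and Gstp1 rose and Gstm5 fell. Gstm1 had no match in its windows, and Gsta4 had no window. A match describes letters only, and a part of these motifs in the changes was not tested.

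A further 20 genes of the wider family were listed, and 12 passed the filter on low counts. Oxyhemoglobin against control gave 1 higher gene of the 12, Mgst2, and 0 lower, as did DESeq2, while 2 higher and 2 lower had an unadjusted p under 0.05. In both Hb+NTR1 comparisons 3 were higher (Gsta3, Gsto2 and Gstt3) and 5 were lower (Gstm7, Gstz1, Mgst2, Alox5ap and Gstcd). Gsta3 is in this count although it passed the filter only through the Hb+NTR1 libraries. Of all tested genes, 31.4% were called higher and 32.2% lower against control, and 30.7% and 31.7% against Hb, so these counts are near the background. The median log2 fold change of the 12 was 0.15, -0.13 and -0.47 in the 3 comparisons, beside 0, -0.0043 and -0.011 over all tested genes. Mgst2, a membrane enzyme that makes leukotriene C4, was at 7.28, 9.56 and 9.80 CPM in control, 14.7, 15.0 and 14.5 CPM in Hb, and 5.34, 5.68 and 5.56 CPM in Hb+NTR1. Its groups were fully separated, in the same order as those of Gsta4. Mgst2 rose in Hb (log2 0.74, adjusted p = 0.00149), and in Hb+NTR1 it was lower than control (log2 -0.68, adjusted p = 0.000401) and lower than Hb (log2 -1.41, adjusted p = 8.64e-09).

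Gsta3, an alpha enzyme of the liver whose coding sequence is 65.9% identical to that of Gsta4, moved opposite to it with NTR1. It had 0, 0 and 1 counts in control, 2, 1 and 2 counts in Hb, and 46, 59 and 63 counts in Hb+NTR1, a mean of 3.89 ± 0.652 CPM (SD, n = 3). Every Hb+NTR1 library stood far above the 6 others, all of which were under the floor of 3 counts. The ratio of Hb+NTR1 to control, from 168 counts against 1, was 177 with a 95% counting interval of 31.4 to 7047, and the ratio to Hb, from 168 against 5, was 32.9 with an interval of 13.8 to 103. Gsta3 passed the filter on low counts only through the Hb+NTR1 libraries, so its call had to follow from that group and no p is given. The authors' deposited table of Hb+NTR1 against control, built on the same counts, lists Gsta3 with a log2 fold change of 7.37. None of the 10 transferases is among the 691 genes of that table, all of which have an absolute log2 fold change of at least 2. The other alpha genes, Gsta1 and Gsta2, were untested and are named here after their values were seen. Gsta1 had 7 counts in the control libraries together, 25 in Hb and 0 in Hb+NTR1, and Gsta2 had 7, 19 and 3. These genes share 89.7% and 64.2% of their 50-base windows with other genes.

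Gstcd and Gstz1 had the highest CPM of the remaining family genes. Gstm7, another mu enzyme, was in control at 7.87 ± 1.33 CPM, in Hb at 8.88 ± 1.995 CPM and in Hb+NTR1 at 2.499 ± 0.861 CPM (SD, n = 3), a log2 change of -1.65 against control (adjusted p = 1.12e-06). Gstz1, which isomerises maleylacetoacetate in tyrosine breakdown, was at 26.4, 27.1 and 16.4 CPM. Alox5ap, the 5-lipoxygenase activating protein, was at 1.98, 2.60 and 0.694 CPM, and Gstcd, which carries a transferase-like domain, at 55.4, 46.9 and 35.8 CPM. All of these were lower in Hb+NTR1 than in either other group and passed the test, with no overlap. Gsto2, the second omega enzyme, was at 2.23, 2.41 and 4.72 CPM, and Gstt3, a theta enzyme, at 4.91, 5.34 and 8.30 CPM. Both were higher in Hb+NTR1 against control, with log2 1.09 (adjusted p = 0.000394) and 0.76 (adjusted p = 0.00111). Ptges, a prostaglandin E synthase of the membrane family, was at 11.9, 8.76 and 10.5 CPM with no call in the 3 comparisons (lowest adjusted p = 0.0815, in Hb against control, and 0.0478 without Hb replicate 2). Gstm6 and Gstp2 had group means of 0.614 to 1.34 CPM and no call.

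**Figure D4:**
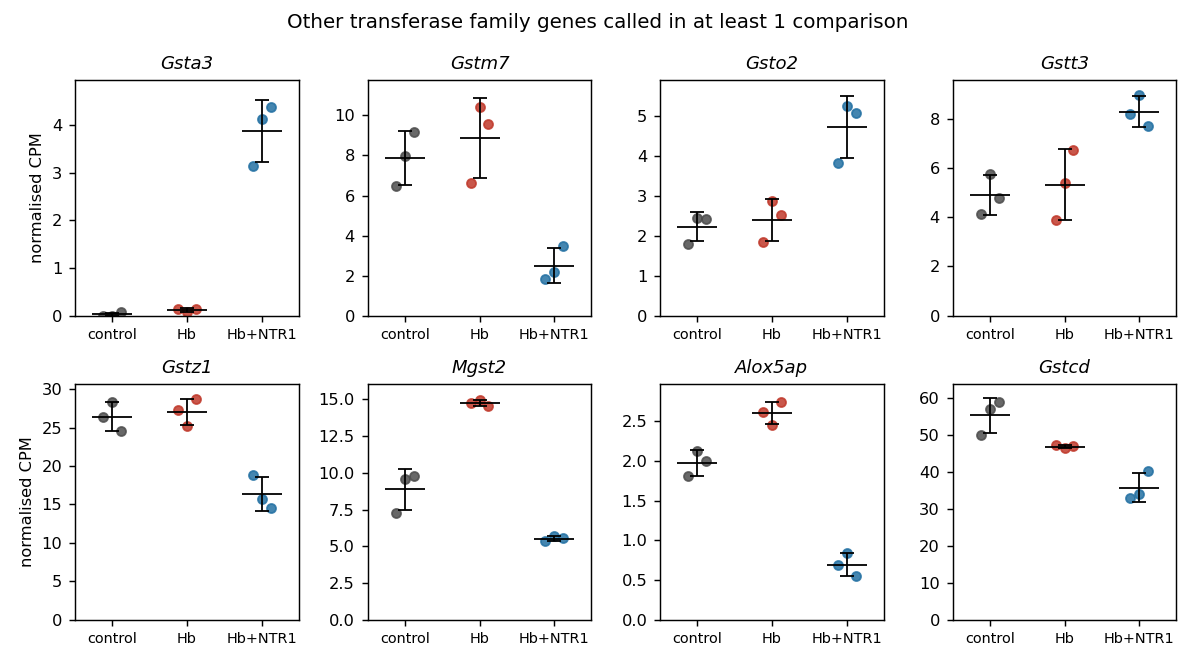
Normalised CPM (y axes, linear, from 0) of the 8 other family genes called in at least 1 comparison, by group, with points for libraries, lines for means and bars for SD. Gsta3 rises from at most 0.148 CPM in control and Hb to 3.15 to 4.38 CPM in Hb+NTR1, while Mgst2 is highest in Hb at 14.5 to 15.0 CPM.

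The enzymes that supply the transferases with glutathione and NADPH were read from a list of 12 genes, all tested. Against control, Hb libraries had 4 higher (Gclm, Gclc, Pgd and G6pdx) and 0 lower genes, also in DESeq2, and 6 and 0 at an unadjusted p under 0.05. Of all tested genes 1.88% were higher and 1.77% lower in that comparison. In Hb+NTR1 against control 6 were higher and 4 lower (31.4% and 32.2% of all genes), and against Hb 6 were higher and 5 lower (30.7% and 31.7%). The median log2 fold change of the list was 0.14, 0.19 and 0.061, beside 0, -0.0043 and -0.011 over all genes. Gclc, the catalytic subunit of the rate-limiting ligase of glutathione synthesis, was at 62.4, 74.2 and 68.3 CPM in control, 101.5, 103.5 and 102 CPM in Hb, and 203, 199 and 196 CPM in Hb+NTR1. The 3 groups rose in steps with no overlap, by log2 0.58 from control to Hb (adjusted p = 5.62e-06) and 0.96 from Hb to Hb+NTR1 (adjusted p = 9.39e-12). Gclm, its modifier subunit, took the same order at 105.8 ± 11.6, 165 ± 10.5 and 269 ± 8.11 CPM (SD, n = 3). Pgd, an NADPH-producing enzyme of the pentose phosphate pathway, went from 205 ± 3.11 to 279 ± 16.2 and 434 ± 37.6 CPM. G6pdx, the first enzyme of that pathway, was called in Hb (log2 0.28, adjusted p = 0.0163), a call lost without control replicate 1 (adjusted p = 0.12) or control replicate 3 (adjusted p = 0.0922). Gsr, which reduces oxidised glutathione, was higher in Hb+NTR1 than in control (log2 0.59, adjusted p = 6.16e-08). Slc7a11, the cystine importer that feeds the synthesis, was instead lower in Hb+NTR1, at 23.1 ± 1.79 CPM against 36.9 ± 5.35 CPM in Hb (log2 -0.67, adjusted p = 4.77e-06).

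Conjugate export and breakdown was a list of 22 genes, of which 17 were tested. In Hb against control edgeR and DESeq2 each called 0 in either direction (2 higher and 1 lower at an unadjusted p under 0.05), and in each Hb+NTR1 comparison 6 were higher and 6 lower. These latter counts are near the share of all genes, 31.4% and 32.2% against control and 30.7% and 31.7% against Hb. The median log2 fold changes of the list were 0.012, -0.12 and 0.026. Abcc2, a membrane pump for glutathione conjugates, had 14 counts in the control libraries, 18 in Hb and 147 in Hb+NTR1, a ratio of 11.1 to control with a 95% counting interval of 6.40 to 20.8. Abcc2 is among the 6 higher genes of both comparisons, although it passed the filter on low counts only through the Hb+NTR1 libraries. Its calls there had to follow from that group, and no p is given. The authors' deposited table, built on the same counts, gives it a log2 fold change of 3.47. Dpep1, a dipeptidase, rose from 10.9 ± 0.879 CPM in control to 39.9 ± 1.98 CPM in Hb+NTR1 (log2 1.87, adjusted p = 3.55e-13). Cndp2, which cleaves cysteinylglycine, rose from 32.9 ± 3.45 to 91.9 ± 1.31 CPM, while the aminopeptidase Anpep fell from 6.82 ± 0.357 to 2.43 ± 0.786 CPM (SD, n = 3), both for Hb+NTR1 against control.

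The enzymes that act on reactive carbonyls, quinones and epoxides, some of which share substrates with the transferases, were a list of 26 genes with 23 tested. In Hb against control 5 were higher and 1 lower (1.88% and 1.77% of all genes). In Hb+NTR1 against control 9 were higher and 7 lower (31.4% and 32.2% of all genes), and against Hb 8 were higher and 7 lower (30.7% and 31.7%), both near the background. The median log2 fold changes of the list were 0.028, 0.025 and -0.034. Aldh3a1, which oxidises lipid aldehydes, was at 3.25, 3.19 and 3.58 CPM in control, 12.8, 15.0 and 10.1 CPM in Hb, and 4.52, 5.75 and 6.12 CPM in Hb+NTR1. It rose in Hb (log2 1.92, adjusted p = 2.23e-07) and was lower again in Hb+NTR1 than in Hb (log2 -1.21, adjusted p = 1.16e-06), though above control. Nqo1, a quinone reductase, took the order of Gclc, at 66.6 ± 13.8, 91.8 ± 2.46 and 197 ± 2.186 CPM. Its call in Hb against control (log2 0.46, adjusted p = 0.00453) was lost without control replicate 2 (adjusted p = 0.0518). Akr1b3, the aldose reductase, was higher in Hb (log2 0.42, adjusted p = 0.00197) and lower in Hb+NTR1 than in Hb (log2 -0.70, adjusted p = 6.18e-08). From control to Hb+NTR1, Aldh3b1 rose from 2.61 ± 0.66 to 18.8 ± 0.646 CPM and Aldh2 from 28.8 ± 1.71 to 79.6 ± 9.47 CPM. Their Hb means were 3.205 and 32.9 CPM. Cbr2, a carbonyl reductase, fell from 52.1 ± 6.24 CPM in control to 8.91 ± 1.03 CPM in Hb+NTR1 (log2 -2.55, adjusted p = 2.59e-15). The call of Cbr2 in Hb against control (log2 -0.35, adjusted p = 0.0384) held in 9 of 16 alternatives.

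Of 9 glutathione peroxidase genes 5 were tested, with 0 called in Hb against control by edgeR or DESeq2 (1 higher and 2 lower at an unadjusted p under 0.05), and 1 higher and 2 lower in each Hb+NTR1 comparison, where 31.4% and 32.2% of all genes were called against control and 30.7% and 31.7% against Hb. For these 5 the median log2 fold changes were -0.16, -0.07 and -0.13. Gpx7, a peroxidase of the endoplasmic reticulum, fell from 9.08 ± 0.938 CPM in control to 2.40 ± 0.303 CPM in Hb+NTR1 (log2 -1.92, adjusted p = 6.65e-09). Gpx1, the main cytosolic peroxidase, fell by a log2 change of -0.73 in the same comparison (adjusted p = 3.78e-08). The call of Prdx6 (log2 0.20, adjusted p = 0.0314, against control) was lost without control replicate 2 or 3 or either of 2 Hb+NTR1 libraries (adjusted p from 0.0876 to 0.13). That of Gpx8 (log2 0.19, adjusted p = 0.0384, against Hb) was lost without any one of 5 of the 6 libraries compared (adjusted p from 0.0708 to 0.246).

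Among 12 regulators of transferase genes, 10 were tested. In Hb against control only Mafg, a small partner of NRF2, was called (log2 0.29, adjusted p = 0.0162), where 1.88% of all genes were higher. That call was lost without control replicate 2 (adjusted p = 0.111), control replicate 3 (adjusted p = 0.162) or the first Hb library (adjusted p = 0.0573). In Hb+NTR1 against control 5 were higher and 1 lower (31.4% and 32.2% of all genes), and against Hb 5 were higher and 2 lower (30.7% and 31.7%). For the 10 regulators the median log2 fold changes were -0.011, 0.39 and 0.39. Nfe2l2, the gene of NRF2, was at 59.9, 65.3 and 74.9 CPM in control, 59.2, 62.0 and 60.2 CPM in Hb, and 160.1, 159.7 and 152 CPM in Hb+NTR1. Control and Hb overlapped (adjusted p = 0.388), and all Hb+NTR1 libraries were above both (log2 1.24 against control, adjusted p = 6.59e-13). Maff, another small partner, rose from 11.8 ± 0.159 to 32.1 ± 3.65 CPM. Bach1, a repressor that competes with NRF2 and is released by heme, rose from 39.1 ± 2.36 to 71.6 ± 2.66 CPM. Ahr, the dioxin receptor, rose from 6.78 ± 0.812 to 11.7 ± 0.792 CPM, all in Hb+NTR1 against control (SD, n = 3). Cebpb, a factor of the acute-phase and stress response, was lower in Hb+NTR1 than in Hb (log2 -1.57, adjusted p = 0.00302).

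**Figure D5:**
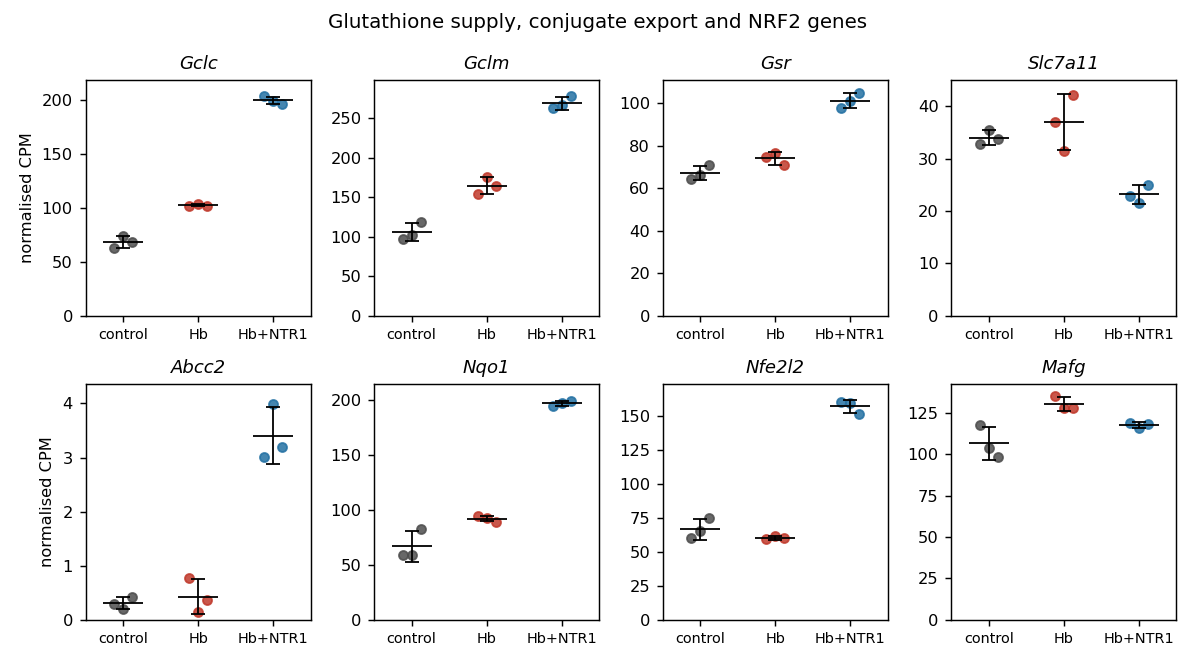
Normalised CPM (y axes, linear, from 0) of 8 genes of glutathione supply, conjugate export and the NRF2 pathway by group, with points for libraries, lines for means and bars for SD. Gclc, Gclm and Nqo1 rise from control through Hb to Hb+NTR1, Nfe2l2 is high only in Hb+NTR1 at 152 to 160.1 CPM, and Slc7a11 is lowest there at 21.5 to 25.0 CPM.

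The genes whose levels were most like a member were found by Pearson correlation of log2 CPM over the 9 libraries. The libraries share the 3 groups, so the coefficient mostly reflects the order of the group means, and no p is given. For Gsta4 the closest were Itgb8 (r = 0.99), Lsm11, Mettl25, Rgl2 and Plekha1 (r = 0.987). Itgb8, an integrin subunit, was at 5.71, 8.76 and 2.87 CPM in control, Hb and Hb+NTR1, a narrower span than that of Gsta4. For Mgst1 the closest were Slc41a2 (r = 0.995), Elf2, Ptgs2, Skap2 and Slc25a25 (r = 0.991). Ptgs2, the inducible cyclooxygenase, was at 110.4, 144 and 283 CPM. For Gstm1 they were Sprr1a (r = 0.97), Cdr2l, Pcdhgc3, Hsf1 and Hk1 (r = 0.955). Hk1, a hexokinase, was at 191, 237 and 182 CPM. No gene was shared between the 3 sets of 5.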

How the data were processed

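Raw counts per gene symbol were deposited by the authors for 9 libraries, not normalised, from 54232 entries, of which 98 repeated a symbol and all counts and were removed. The submitters' processing notes name the GRCm38 genome, HTSeq 0.10.0, HISAT2 2.1.0 and bcl2fastq 2.19.1.403, while the sources used here give neither strand nor multi-mapping settings. The authors' deposited comparison table holds log2 fold changes and p-values for Hb+NTR1 against control. Columns named N were taken as Hb+NTR1, without replicate numbers.

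Counts were fitted in R 4.3.3 with edgeR 4.0.16 (filterByExpr with a minimum count of 10, TMM factors, robust quasi-likelihood F test, two-sided, Benjamini-Hochberg over 13810 genes, threshold 0.05). All 9 libraries entered 1 fit with a term for group, whose common biological coefficient of variation was 6.90%. Simulated data for the Hb and control comparison tested the fit (13242 genes, 50 changed at each size), where it called 48.0% of genes changed 1.25-fold and 92.0% of those changed 2-fold, and 6.40% of its calls were unchanged genes. Ratios of few counts carry exact 95% intervals, which cover counting error only.

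Positions and transcripts came from GENCODE M21 on GRCm38 and promoters from RefSeq, read with Python 3.11.15 and Biopython 1.88. The members and lists were chosen with earlier results of these data known. Every member was named, other family genes with at least 1 CPM in a group, up to 4 called genes per list and comparison, and the 5 most alike genes for 3 members. Alternatives were DESeq2 1.42.0 and its size factors in edgeR, library totals alone, other filters on low counts, only the 6 libraries compared, each library left out in turn, and a block for replicate number.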

Additional observations from a re-analysis of the deposited data

How the results depend on the processing

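The called directions of the 8 tested transferases did not reverse under any alternative run. Of 368 alternative values for their 24 log2 fold changes, 345 kept both direction and side of the threshold, 14 lost a call, 4 gained one and 5 reversed, all 5 in results without a call. The number of transferases called in Hb against control ranged from 2 to 4 over the fits that leave out 1 library, and the number of all genes called from 285 to 1125, the highest without Hb replicate 2. Counts called in the Hb+NTR1 comparisons stayed within 1.5 times. The cause of these shifts was not tested. Replicate number as a block, over the 6 numbered libraries, called 4 transferases and 534 genes in Hb against control and changed no call of a named gene there. Whether the numbers pair libraries is not stated, and the Hb+NTR1 columns carry no number. Deviations of same-numbered libraries correlated at 0.0953, -0.0226 and -0.0488, and those of differently numbered ones at -0.116 to 0.139. With 3 libraries a group these values cannot decide whether cultures were paired. With library totals alone Gstm2 reversed to 0.031 in Hb against control. In the same comparison, without a called result, leaving out 1 library moved Gstm2 between -0.035 and 0.013 log2, Mgst3 between -0.15 and 0.038, Gstp2 between -0.45 and 0.23, Gsto2 between -0.033 and 0.28, Gstz1 between -0.016 and 0.081, and Gstt3 between -0.076 and 0.31. The largest move of the median of all genes under another scaling was 0.0628 log2, with library totals alone in Hb+NTR1 against control. Genes under 3 counts per library, such as Gstt1 and Gstk1, lie below what this depth resolves.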
